A study of Homo sapiens with 2 samples.

Results

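The genes described here are 35 genes of MHC antigen presentation and of ligands that immune cells read beside it, chosen by gene symbol from a fixed list, among 58735 genes in the deposited count table. All 35 were listed in the table. They comprise 6 class I chain genes, 6 genes of peptide transport, trimming and loading, 3 immunoproteasome subunits, 5 transcriptional regulators, 10 class II genes, 4 NKG2D ligands and CD274, which encodes PD-L1. RNA was sequenced from PLC8024 cells, the hepatoma line PLC/PRF/5 or Alexander cells, as 1 library of MAEL WT cells, labelled wild type and not treated, and 1 of MAEL KO cells. In a cell assay the study describes its WT cells as a nontarget control, and whether the sequenced MAEL WT cells carried a control plasmid or were cloned is not given in the sources used here. According to the study's methods the knockout was made with an sgRNA and Cas9 plasmid and single clones were grown from sorted cells, so an effect of the knockout cannot be told apart from other differences between the lines. MAEL itself, a cancer/testis gene on chromosome 1, had 1 count in MAEL WT and 0 in MAEL KO, so the labels could not be checked by its RNA. The study reports a check of the knockout by Western blot and a T7E1 mismatch assay, which were not analysed here. With 1 library per condition there is no replicate error. All intervals below cover counting error only, and no test of the conditions was possible.

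MHC class I molecules show peptides from inside the cell to CD8+ T cells. Proteasomes cut proteins into peptides, TAP1 and TAP2 carry them into the endoplasmic reticulum, ERAP1 and ERAP2 trim them, and TAPBP (tapasin) helps to load them onto a heavy chain bound to B2M. Interferon-gamma is known to raise most of these genes, to exchange the catalytic proteasome subunits for the immunoproteasome subunits, and to act on class I genes through NLRC5 and on class II genes through CIITA. Class II molecules, shown to CD4+ T cells, are normally made by professional antigen presenting cells, and hepatocytes carry few of them. MICA, MICB and the ULBP proteins are stress-induced ligands of the NKG2D receptor on NK cells.

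The promoters below are shown because their genes carry the differences described further on, together with those of HLA-C and B2M, which differed less. Each is the run of 250 bases before a RefSeq transcription start on GRCh38.p14, 5′ to 3′ on the strand of the gene. Capitals mark every match, on either strand, to the interferon-stimulated response element (GAAA, any 2 bases, GAAA), ATTGG (inverted CCAAT, the core of the Y box), TGACG (the cAMP response element core of the X2 box), GCAAC (the core of the X1 box) or GGGNNTTCC (a form of the kappa B site), and matches may overlap. Other spellings of these sites were not searched, such as GGGACTTTCC, which the TAP1 run holds unmarked. Lower case therefore does not mean that a site is absent.
HLA-B (chr6:31357180-31357429, minus strand): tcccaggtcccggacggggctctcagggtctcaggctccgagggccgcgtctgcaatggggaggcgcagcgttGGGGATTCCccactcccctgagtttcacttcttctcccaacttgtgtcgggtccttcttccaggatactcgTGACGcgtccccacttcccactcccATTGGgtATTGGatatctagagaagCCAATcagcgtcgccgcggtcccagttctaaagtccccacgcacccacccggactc
HLA-C (chr6:31272093-31272342, minus strand): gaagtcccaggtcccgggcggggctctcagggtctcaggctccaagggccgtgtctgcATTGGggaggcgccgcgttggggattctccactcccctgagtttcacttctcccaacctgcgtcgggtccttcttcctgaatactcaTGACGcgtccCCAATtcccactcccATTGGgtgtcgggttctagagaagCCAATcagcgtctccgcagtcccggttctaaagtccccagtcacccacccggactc
B2M (chr15:44711267-44711516, plus strand): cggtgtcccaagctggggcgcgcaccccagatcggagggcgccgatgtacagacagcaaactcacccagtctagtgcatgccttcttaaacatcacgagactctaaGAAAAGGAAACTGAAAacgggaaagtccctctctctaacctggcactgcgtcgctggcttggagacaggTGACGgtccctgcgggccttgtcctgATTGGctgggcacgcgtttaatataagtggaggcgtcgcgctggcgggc
TAP1 (chr6:32853705-32853954, minus strand): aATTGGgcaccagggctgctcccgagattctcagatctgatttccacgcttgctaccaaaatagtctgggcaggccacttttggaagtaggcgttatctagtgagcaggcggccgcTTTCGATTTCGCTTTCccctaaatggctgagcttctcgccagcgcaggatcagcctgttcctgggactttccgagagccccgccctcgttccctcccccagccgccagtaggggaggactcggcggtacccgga
PSMB8 (chr6:32844680-32844929, minus strand): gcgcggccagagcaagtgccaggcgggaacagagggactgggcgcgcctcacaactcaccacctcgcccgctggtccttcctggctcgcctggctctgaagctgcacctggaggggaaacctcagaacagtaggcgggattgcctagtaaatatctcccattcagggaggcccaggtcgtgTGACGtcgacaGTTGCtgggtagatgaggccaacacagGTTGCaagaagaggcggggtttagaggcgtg
ULBP1 (chr6:149963693-149963942, plus strand): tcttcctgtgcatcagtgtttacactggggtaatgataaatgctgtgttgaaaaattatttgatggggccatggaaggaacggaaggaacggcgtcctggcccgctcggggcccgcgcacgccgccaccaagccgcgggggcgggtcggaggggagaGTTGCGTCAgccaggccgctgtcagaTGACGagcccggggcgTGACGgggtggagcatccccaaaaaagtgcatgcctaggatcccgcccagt
ULBP2 (chr6:149941764-149942013, plus strand): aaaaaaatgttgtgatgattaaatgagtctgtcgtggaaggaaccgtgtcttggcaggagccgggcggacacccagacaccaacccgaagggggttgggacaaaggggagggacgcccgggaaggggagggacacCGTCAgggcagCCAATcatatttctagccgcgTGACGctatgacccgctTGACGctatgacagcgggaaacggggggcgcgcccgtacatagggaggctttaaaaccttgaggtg

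The HLA-B and HLA-C promoters had 226 identical bases of 246 aligned, or 91.9%, with 8 gap positions. Each held 1 TGACG, 106 bases before the start in HLA-B and 105 in HLA-C, with 3 copies of ATTGG after it, and HLA-B alone held GGGNNTTCC. B2M and TAP1 each held 2 overlapping interferon-stimulated response elements, which start 144 and 138 bases before the start of B2M and 134 and 128 bases before that of TAP1. ULBP1 and ULBP2 held 3 copies of TGACG each. RefSeq windows were found for 31 of the 35 genes (not for HLA-E, NLRC5, CIITA and HLA-DRA), and where a gene had several, the one nearest to the start listed in the table was used. The interferon-stimulated response element was present in 7 of the 31 (22.6%) against 3.02% of 35116 windows of all genes, and ATTGG in 19 (61.3%) against 32.0%. TGACG was present in 13 (41.9%) against 21.2%, GCAAC in 9 (29.03%) against 28.2%, and GGGNNTTCC in 4 (12.9%) against 5.78%. Genes with the interferon-stimulated response element had log2 ratios of MAEL KO to MAEL WT from -2.13 in CD274 to -0.10 in B2M, and those with TGACG from -4.57 in ULBP1 to 0.61 in HLA-DMB, so these letters went with small and with large differences.

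The libraries held 19904136 counts in MAEL WT and 20833332 in MAEL KO, and 3 counts, the floor used here, equal 0.151 and 0.144 CPM (counts per 1e6 counts). Log2 KO/WT stands for the log2 ratio of the MAEL KO to the MAEL WT library after TMM normalization, with 1 added to each normalized count, and it was taken for the 17887 genes that reached 10 counts in either library, called tested genes here although no significance test was made. Their median was -0.04, and it moved to -0.31 with total counts in place of TMM, which puts log2 KO/WT 0.28 lower for abundant genes and slightly less for those with few counts. Of the 35 genes, 30 had at least 10 counts in a library. The other 5 had from 0 to 8 counts. Among the 30, 6 (20%) had under 10 counts in MAEL KO, against 1845 of the 17887 tested genes (10.3%). None had under 10 in MAEL WT, against 606 of the 17887.

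Most of the antigen presentation genes were lower in the MAEL KO library. In bulk RNA, fewer cells carrying a transcript and less of it per cell cannot be told apart. Log2 KO/WT was below 0 for 26 of the 30, against 52% of all tested genes, and for 21 the 95% interval lay wholly below 0, against 34.7%. It lay wholly above 0 for RFX5 and HLA-DMB, against 34.8% of all tested genes. Their lower bounds, 0.06 and 0.08, are smaller than the shift of 0.28 made by total counts. With that scaling neither interval lies wholly above 0. The median log2 KO/WT of the 30 was -0.85. The study's methods set a log2 threshold of 2 or -2 together with an adjusted p-value cutoff, and only the fold part was used here. Below -2 were 7 of the 30, against 5.64% of all tested genes, and above 2 were none, against 2.16%. Past 2 in either direction lay 7.8% of all tested genes. Those 7 were ULBP1, PSMB8, ULBP2, PSMB9, NLRC5, CD274 and HLA-B. Since low MAEL KO counts alone can place a gene there, the same was counted for genes with at least 10 counts in both libraries. It held for 4 of 24 members (16.7%) and for 298 of 15436 genes (1.93%). At a threshold of 1, 11 were below -1 and none above 1, against 16.5% and 10.2%.

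**Figure D1:**
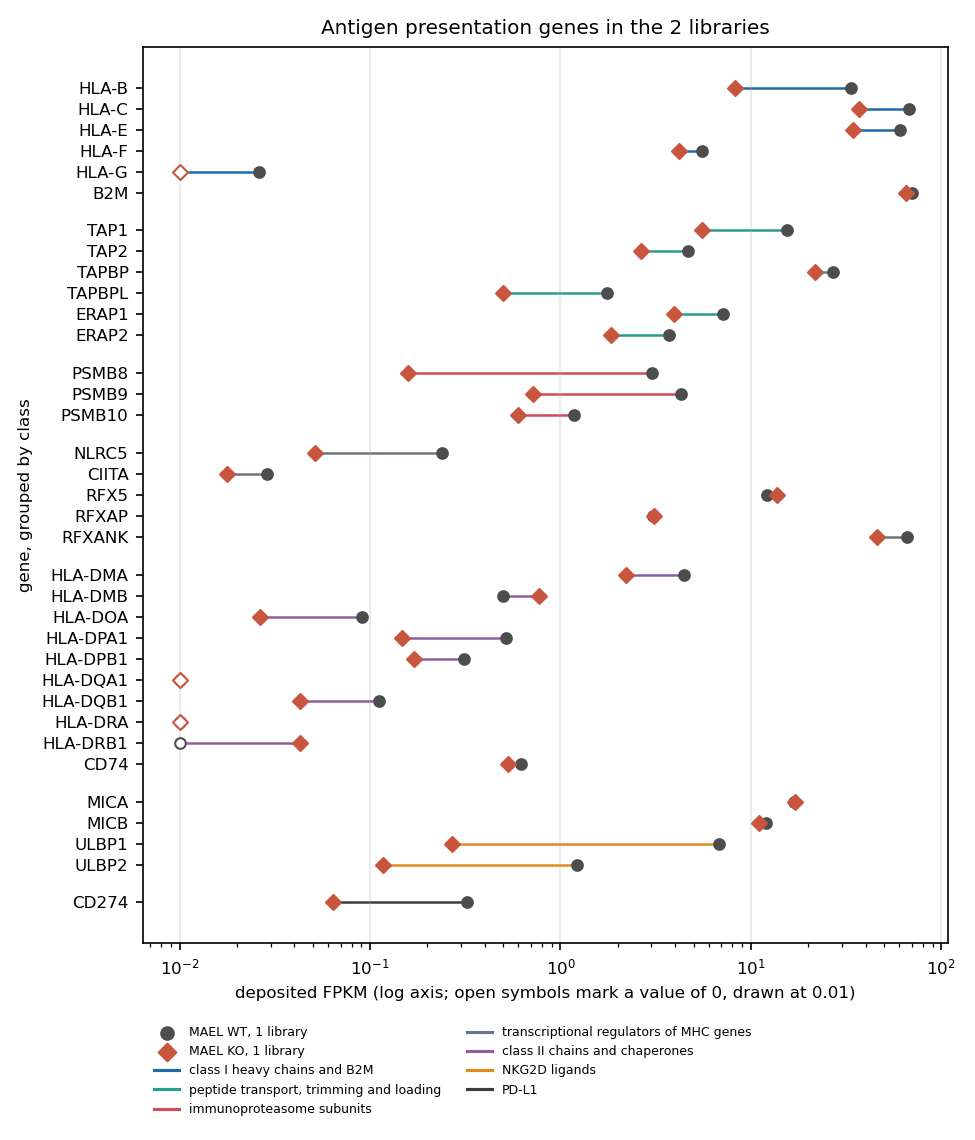
Deposited FPKM of the 35 genes (log axis) in the MAEL WT library (circles) and the MAEL KO library (diamonds), grouped by class, with lines joining the libraries. Among genes detected in both libraries, the widest gaps are those of PSMB8, PSMB9, ULBP1 and ULBP2, while B2M, RFX5, RFXAP, MICA and MICB nearly coincide, and HLA-DQA1 and HLA-DRA are at 0 in both.

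Among the class I chains, the classical heavy chain HLA-B differed most. HLA-B (chromosome 6, 31269491 to 31357188, minus strand) had 2241 counts in MAEL WT and 475 in MAEL KO, or 33.6 and 8.21 FPKM, with a log2 KO/WT of -2.03 (95% interval -2.17 to -1.88). HLA-C, the other classical heavy chain of the list, had 3694 and 1750 counts, or 67.4 and 36.8 FPKM, with a log2 KO/WT of -0.87 (95% interval -0.95 to -0.79). HLA-E, whose product presents leader peptides of other class I chains to NK cells, had 3927 and 1928 counts, or 60.3 and 34.2 FPKM, a log2 KO/WT of -0.82. HLA-C and HLA-E were thus lower by nearly the same factor, whereas HLA-B was lower by 4.07-fold. HLA-F, a nonclassical heavy chain, had 529 and 345 counts, with a log2 KO/WT of -0.41 (95% interval -0.61 to -0.21). HLA-G, the nonclassical chain known from trophoblast, had 1 count in MAEL WT and 0 in MAEL KO and was not detectable at this depth.

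B2M, the light chain that all class I heavy chains share, was the most abundant of the 35 genes per length in each library. It had 9307 counts in MAEL WT and 7529 in MAEL KO, or 70.0 and 65.3 FPKM, with a log2 KO/WT of -0.10 (95% interval -0.14 to -0.05), or -0.37 with total counts. The heavy chains were therefore lower relative to B2M, a comparison within each library that the scaling does not touch. HLA-B counts per B2M count went from 0.241 to 0.0631, which is 3.82-fold lower (95% interval of the log2 ratio -2.08 to -1.78), and HLA-C counts per B2M count from 0.397 to 0.232, which is 1.71-fold lower (95% interval -0.87 to -0.68).

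HLA genes are near-identical and reads can be split between them. The listed span of HLA-B also runs over HLA-C, with which it shares 35 exonic bases, so the heavy chains were also summed. The 5 heavy chain genes of the list had 10392 counts in MAEL WT and 4498 in MAEL KO, with a log2 KO/WT of -0.998 (95% interval -1.05 to -0.947), and with 9 class I pseudogenes added 10621 and 4595, also -0.998. HLA-B and HLA-C together had 5935 and 2225 counts, with a log2 KO/WT of -1.20 (95% interval -1.28 to -1.13). Within the 5 genes, the share of HLA-B counts was 21.6% in MAEL WT (95% Clopper-Pearson interval 20.8% to 22.4%) and 10.6% in MAEL KO (9.68% to 11.5%). HLA-C made up 35.5% and 38.9% and HLA-E 37.8% and 42.9%. The ratio of HLA-B to HLA-C counts was 2.23-fold lower in MAEL KO (95% interval of the log2 ratio -1.33 to -0.99), while that of HLA-C to HLA-E went from 0.941 to 0.908, with an interval of the log2 ratio from -0.17 to 0.06 that includes 0.

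All 6 genes of peptide transport, trimming and loading were lower in the MAEL KO library, none of them past -2, with a median log2 KO/WT of -0.92. TAP1, a subunit of the peptide transporter, had 1636 counts in MAEL WT and 506 in MAEL KO, or 15.6 and 5.55 FPKM, with a log2 KO/WT of -1.48 (95% interval -1.63 to -1.34). Its partner TAP2 had 656 and 320 counts, or 4.69 and 2.64 FPKM, with a log2 KO/WT of -0.82 (95% interval -1.02 to -0.63). The 2 subunits did not keep their ratio, since TAP1 counts per TAP2 count went from 2.49 to 1.58, 1.58-fold lower (95% interval of the log2 ratio -0.90 to -0.41).

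TAPBP, which bridges the transporter and the heavy chain, had 2984 and 2091 counts, or 27.0 and 21.8 FPKM, and the smallest difference of this class, with a log2 KO/WT of -0.30 (95% interval -0.38 to -0.22). TAPBPL, which encodes the related peptide editor TAPBPR, was less abundant, at 123 and 30 counts or 1.76 and 0.496 FPKM, with a log2 KO/WT of -1.79 (95% interval -2.45 to -1.24), or -2.06 with total counts. The aminopeptidases differed alike. ERAP1 had 1235 and 597 counts, with a log2 KO/WT of -0.84 (95% interval -0.98 to -0.70), and ERAP2 602 and 260 counts, with a log2 KO/WT of -0.998 (95% interval -1.22 to -0.79). Their ratio went from 2.05 to 2.30, with an interval of the log2 ratio from -0.10 to 0.42.

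The immunoproteasome subunits, which replace the constitutive catalytic subunits PSMB5, PSMB6 and PSMB7, had a median log2 KO/WT of -2.54. PSMB8 (chromosome 6, 32840717 to 32844703, minus strand) had 199 counts in MAEL WT and 9 in MAEL KO, or 3.04 and 0.158 FPKM, 17.4-fold lower, with a log2 KO/WT of -4.12 (95% interval -5.41 to -3.30). PSMB9 (chromosome 6, 32844136 to 32859585, plus strand) had 287 and 42 counts, or 4.27 and 0.721 FPKM, with a log2 KO/WT of -2.54 (95% interval -3.07 to -2.09). PSMB10, which shares 34.8% of its exonic bases with an overlapping gene of 33 and 35 counts, had 48 and 21 counts, or 1.18 and 0.598 FPKM, with a log2 KO/WT of -0.95 (95% interval -1.80 to -0.21). The order was thus PSMB8, PSMB9, PSMB10, and the intervals of PSMB8 and PSMB9 did not overlap that of PSMB10.

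Their constitutive counterparts did not follow them. PSMB5 had 3439 and 3916 counts, PSMB6 2864 and 2982, and PSMB7 3385 and 3803, with log2 KO/WT values from 0.27 to 0.40. With total counts these went from -0.01 for PSMB6 to 0.12 for PSMB5. Per gene length, PSMB8 made up 3.30% of PSMB8 and PSMB5 in MAEL WT (95% interval 2.86% to 3.78%) and 0.135% in MAEL KO (0.0618% to 0.257%). PSMB9 made up 4.51% of PSMB9 and PSMB6 (4.002% to 5.06%) and 0.660% (0.475% to 0.892%), and PSMB10 1.35% of PSMB10 and PSMB7 (0.996% to 1.78%) and 0.530% (0.328% to 0.809%). The proteasome RNA of both libraries was therefore almost wholly of the constitutive kind, and the smaller immunoproteasome part was lower in MAEL KO for each of the 3 subunits. The ratio to the counterpart was 25.2-fold lower for PSMB8, 7.11-fold for PSMB9 and 2.57-fold for PSMB10.

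**Figure D2:**
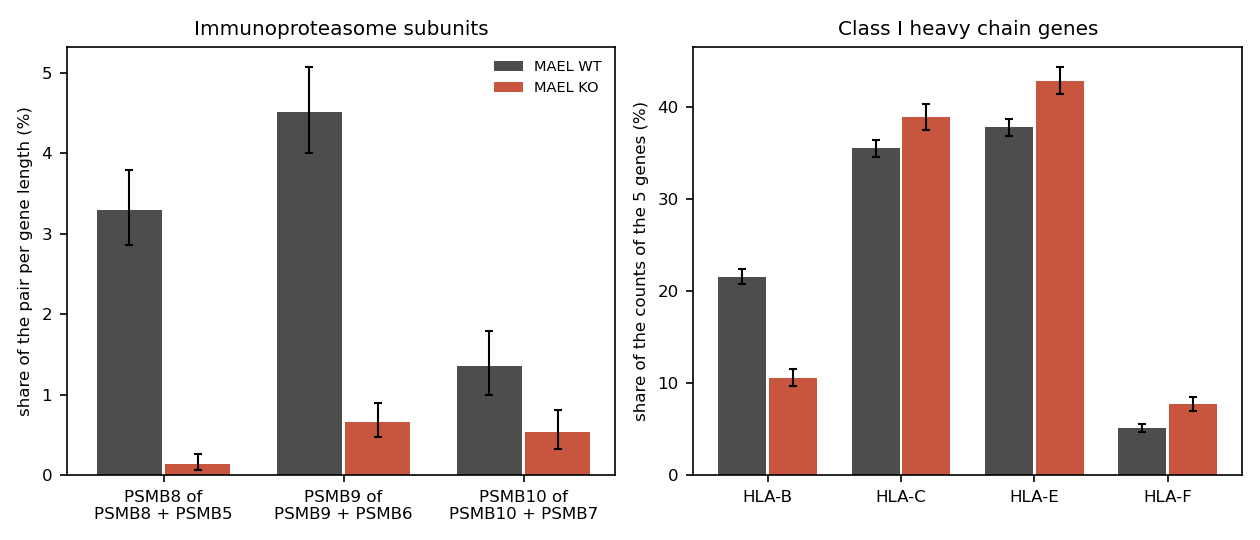
Left, share of each immunoproteasome subunit in the sum with its constitutive counterpart, in percent per gene length. Right, share of 4 heavy chain genes in the counts of the 5 class I heavy chain genes, in percent. Bars are the MAEL WT and MAEL KO libraries and error bars 95% exact counting intervals. The PSMB8 share goes from 3.30% to 0.135% and the HLA-B share from 21.6% to 10.6%, while HLA-C, HLA-E and HLA-F take larger shares.

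PSMB8, PSMB9, TAP1 and TAP2 lie next to each other in the class II region of chromosome 6, with PSMB9 and TAP1 on opposite strands. In the GENCODE annotation PSMB8 and PSMB9 share 139 exonic bases, and PSMB8 shares 618 with the antisense gene PSMB8-AS1, which had 5 and 1 counts. Whether reads were counted by strand is not given in the sources used here. PSMB8 counts per PSMB9 count were 3.23-fold lower in MAEL KO (95% interval of the log2 ratio -2.95 to -0.59), and TAP1 counts per PSMB9 count went from 5.70 to 12.0, so the genes of this cluster were lower by different factors. In all, 21 of the 35 genes lie between HLA-F and TAPBP on chromosome 6 (29722775 to 33314387). The 16 of them with enough counts had a median log2 KO/WT of -0.85, and the 14 elsewhere in the genome one of -0.89. The 115 tested genes of the same interval that are on none of the lists and carry no HLA symbol had a median of -0.00116, with 58 below 0 and 57 above 0. Of them, 4 (3.48%) were below -2, against 5.64% of all tested genes, and 3 above 2, against 2.16%.

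The transcriptional regulators were divided. NLRC5 (chromosome 16, 56989485 to 57083531, plus strand), the transactivator of class I genes, had 65 counts in MAEL WT and 12 in MAEL KO, or 0.240 and 0.0511 FPKM, with a log2 KO/WT of -2.14 (95% interval -3.25 to -1.33). CIITA, its counterpart for class II genes, had 13 and 7 counts, with a log2 KO/WT of -0.62 and an interval from -2.25 to 0.75, too few to tell a difference. RFX5, RFXAP and RFXANK encode the RFX complex, which binds the X box of MHC promoters. RFX5 had 1223 and 1193 counts, or 12.2 and 13.7 FPKM, with a log2 KO/WT of 0.17 (95% interval 0.06 to 0.29), which turned to -0.10 with total counts. RFXAP had 155 and 136 counts, with a log2 KO/WT of 0.02 (95% interval -0.32 to 0.36), or -0.25 with total counts. RFXANK had 3607 and 2193 counts, or 65.9 and 46.2 FPKM, with a log2 KO/WT of -0.51 (95% interval -0.58 to -0.43). It shares 363 exonic bases with BORCS8 and 221 with NR2C2AP, which lie on the other strand. NLRC5 counts per RFX5 count were 5.28-fold lower in MAEL KO (95% interval of the log2 ratio -3.43 to -1.49). NLRC5 thus stood apart from the RFX subunits, at a low level in both libraries.

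Class II RNA was scarce in both libraries. HLA-DRA and HLA-DQA1 had 0 counts in each, which allows up to 0.151 CPM in MAEL WT and 0.144 in MAEL KO, and HLA-DRB1 had 0 in MAEL WT and 1 in MAEL KO. HLA-DOA, a modulator of peptide exchange, had 8 and 2 counts. HLA-DQB1 had 12 and 4 counts and HLA-DPB1 19 and 9, with log2 KO/WT values of -1.20 and -0.81 and intervals that include 0. HLA-DPA1 had 65 and 16 counts, or 0.517 and 0.147 FPKM, with a log2 KO/WT of -1.75 (95% interval -2.70 to -1.01), or -2.02 with total counts. The chains that form the class II molecule were therefore at or below 0.517 FPKM where they were detected at all.

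HLA-DMA and HLA-DMB encode the 2 chains of the editor that exchanges class II peptides, and their balance was not the same in the libraries. HLA-DMA had 246 and 106 counts, or 4.44 and 2.21 FPKM, with a log2 KO/WT of -0.998 (95% interval -1.35 to -0.67). HLA-DMB had 51 and 68 counts, or 0.501 and 0.771 FPKM, with a log2 KO/WT of 0.61 (95% interval 0.08 to 1.18), or 0.34 with total counts. HLA-DMA counts per HLA-DMB count went from 4.82 to 1.56, 3.09-fold lower (95% interval of the log2 ratio -2.28 to -0.98). HLA-DMA shares 55 exonic bases with BRD2 on the other strand, which had 5057 and 6108 counts. CD74, the invariant chain that guides class II molecules, had 43 and 32 counts, with a log2 KO/WT of -0.21 (95% interval -0.92 to 0.48).

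Among the NKG2D ligands, the MIC genes and the ULBP genes differed unlike each other. MICA had 882 counts in MAEL WT and 768 in MAEL KO, or 16.9 and 17.0 FPKM, with a log2 KO/WT of 0.01 (95% interval -0.13 to 0.15), or -0.27 with total counts. MICB had 735 and 586 counts, or 12.01 and 11.05 FPKM, with a log2 KO/WT of -0.12 (95% interval -0.28 to 0.04). ULBP1 showed the largest difference among the 30 genes. This gene (chromosome 6, 149964007 to 149973710, plus strand) had 465 counts in MAEL WT and 16 in MAEL KO, or 6.77 and 0.269 FPKM, with a log2 KO/WT of -4.57 (95% interval -5.47 to -3.94). ULBP2 had 36 and 3 counts, or 1.22 and 0.117 FPKM, with a log2 KO/WT of -3.03 (95% interval -5.72 to -1.71). ULBP1 counts per MICA count went from 0.527 to 0.0208, which is 25.3-fold lower (95% interval of the log2 ratio -5.49 to -3.93). The ratio of ULBP1 to ULBP2 counts, 12.9 and 5.33, had an interval of the log2 ratio from -3.17 to 1.21, so at this depth no difference between the ULBP genes could be told. MICA and MICB lie in the MHC region, ULBP1 and ULBP2 on the long arm of chromosome 6.

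CD274 encodes PD-L1, the ligand of the T-cell inhibitory receptor PD-1. This gene (chromosome 9, 5450503 to 5470566, plus strand) had 29 counts in MAEL WT and 5 in MAEL KO, or 0.323 and 0.0642 FPKM, with a log2 KO/WT of -2.13 (95% interval -4.05 to -0.94). The interval is wide because both counts are low.

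**Figure D3:**
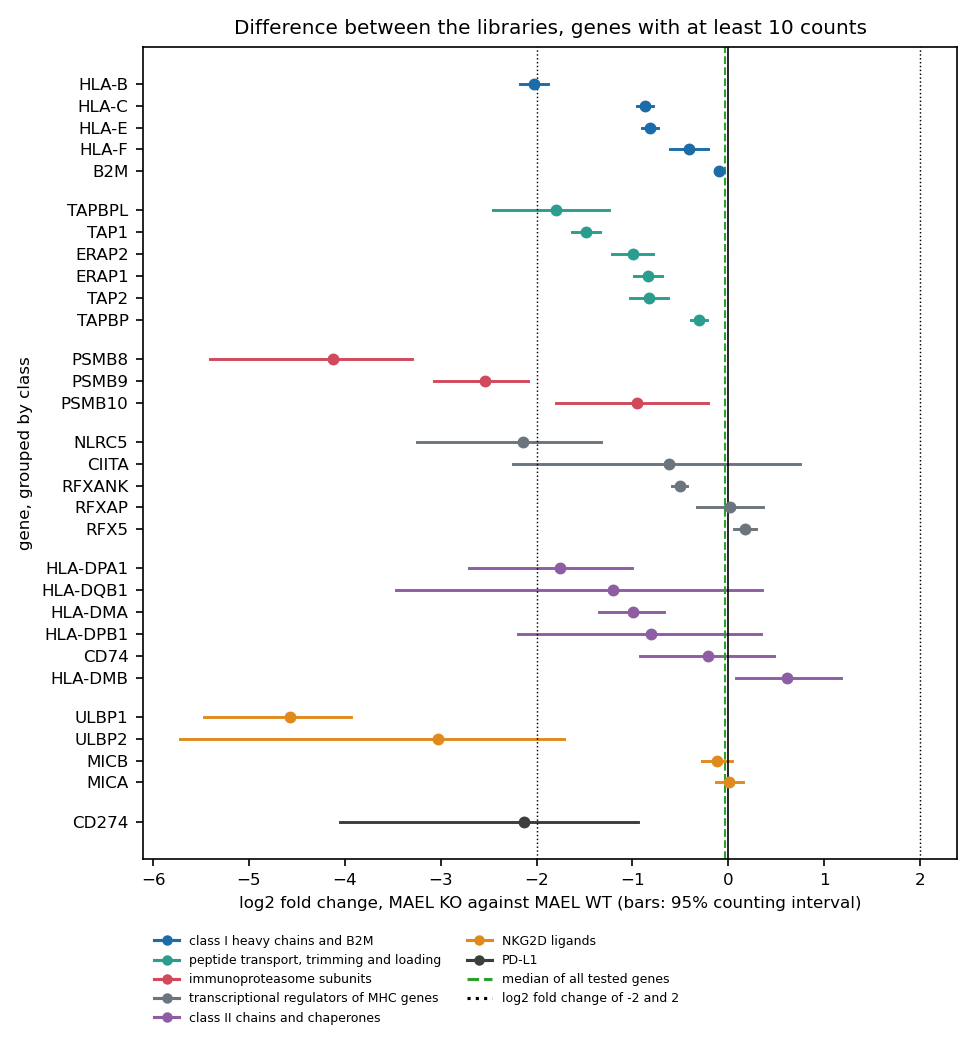
Log2 KO/WT of the 30 genes that reached 10 counts in a library, by class, with 95% counting intervals as bars. Dotted lines mark -2 and 2 and the dashed line the median of all tested genes, -0.04. ULBP1 and PSMB8 lie farthest to the left, at -4.57 and -4.12, and HLA-DMB farthest to the right, at 0.61.

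Other genes of the pathway were taken from lists written by function, 88 genes in all, of which 66 had enough counts. Their median log2 KO/WT was -0.15, with 36 (54.5%) below 0, against 52% of all tested genes, and 30 above 0. These shares are close. Only 1 gene (1.52%) was below -2, against 5.64% of all tested genes, and none was above 2, against 2.16%. That gene was MR1, which presents vitamin B metabolites to MAIT cells. It had 1147 counts in MAEL WT and 193 in MAEL KO, with a log2 KO/WT of -2.36 (95% interval -2.59 to -2.14). The chaperones CALR, CANX and PDIA3, which hold the heavy chain during loading, were not lower with TMM. CALR (calreticulin) had 23076 and 26633 counts and a log2 KO/WT of 0.42, CANX (calnexin) 50176 and 45461 counts and 0.07, and PDIA3 (ERp57) 13229 and 12979 counts and 0.18. With total counts CANX was at -0.21 and PDIA3 at -0.09. The proteasome activator subunits PSME1 and PSME2, which interferon-gamma also raises, were at -0.08 and -0.20.

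Of 14 genes for interferon receptors and JAK-STAT signalling, 11 had a log2 KO/WT below 0, against 52% of all tested genes. Their median was -0.46, against -0.04. The 95% interval lay wholly below 0 for 7 of the 14, against 34.7% of all tested genes, and included 0 for 5. STAT2, part of the factor that binds interferon-stimulated response elements, had 1854 and 548 counts, with a log2 KO/WT of -1.55 (95% interval -1.69 to -1.41). JAK2 had 98 and 44 counts, with a log2 KO/WT of -0.93 (95% interval -1.49 to -0.42). The chains of the interferon-gamma receptor had log2 KO/WT values of 0.34 for IFNGR1 and 0.02 for IFNGR2, or -0.26 for IFNGR2 with total counts. IRF1, which drives class I genes, had 254 and 173 counts, with a log2 KO/WT of -0.34 (95% interval -0.63 to -0.06), and IRF2 291 and 149 counts and -0.75. The factors that bind the X2 and Y boxes did not share this direction, with log2 KO/WT values of 0.01 for CREB1, 0.74 for NFYA, 0.45 for NFYB and 0.26 for NFYC. With total counts CREB1 was at -0.27 and NFYC at -0.01.

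Most of the remaining lists held genes of both directions. In the endosomal pathway of class II, which cuts antigens and the invariant chain, CTSL had 8580 and 3189 counts, with a log2 KO/WT of -1.22 (95% interval -1.28 to -1.16), and CTSS 380 and 173 counts, with -0.92. MARCH1, a ubiquitin ligase that removes class II molecules from the surface, had 101 and 31 counts and -1.47. IFI30, a thiol reductase of the same compartment, had 3 and 10 counts and 1.63, with an interval from -0.01 to 4.45. HSPA5 (BiP), an abundant chaperone of the endoplasmic reticulum, had 63389 and 27544 counts and -0.99, and POMP, which assembles proteasomes, 2160 and 3412 counts and 0.87. Among the other ligands, CD276 (B7-H3) had 2183 and 2949 counts and 0.64, CD40 1037 and 638 counts and -0.49, and PVR 2247 and 1487 counts and -0.39. CLEC2D, a ligand of an inhibitory NK receptor, had 78 and 131 counts and 0.95. The other NKG2D ligands RAET1E, RAET1G and ULBP3 had 6, 5 and 2 counts in MAEL WT and 0 each in MAEL KO, too few for a ratio. PDCD1LG2, which encodes the other PD-1 ligand PD-L2, and CD80 and CD86 had 0 counts in both libraries. Within these lists, the class I pseudogenes had the lowest median, -1.39 over 5 genes that were all below 0, with HLA-L at 136 and 69 counts and HLA-H at 35 and 11. HLA-J (15 and 3 counts), HLA-K (13 and 4) and HLA-V (23 and 5) reached 10 counts only in MAEL WT. The count filter thus favours values below 0 for them, and the HLA-K interval included 0. Summed, the 9 pseudogenes had 229 and 97 counts, with a log2 KO/WT of -1.02 (95% interval -1.39 to -0.68).

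**Figure D4:**
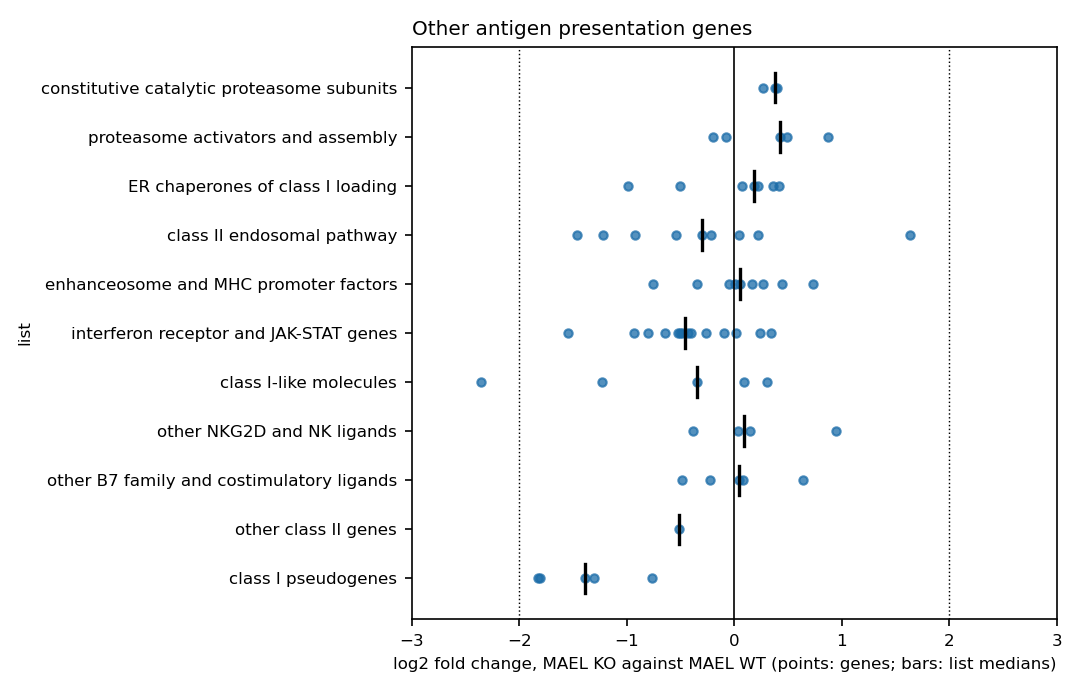
Log2 KO/WT for the other genes of antigen presentation with at least 10 counts in a library. Points are genes, black bars list medians and dotted lines -2 and 2. MR1 at -2.36 lies farthest to the left, and the 3 constitutive proteasome subunits lie between 0.27 and 0.40.

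Immune cells carry class II and immunoproteasome RNA, so their markers were read in the same libraries. Of 16 markers of leukocytes and antigen presenting cells, 4 had at least 10 counts in MAEL WT and 3 in MAEL KO. MS4A1, CD3E, CD3D, CD1C and CLEC9A had 0 counts in both libraries, and PTPRC, the common leukocyte gene, had 3 and 0. The summed level of the 16 was 34.4 FPKM in MAEL WT and 24.2 in MAEL KO, of which LYZ alone gave 32.42 and 22.04. Of 7 endothelial and fibroblast markers, 3 had at least 10 counts in MAEL WT and 4 in MAEL KO, and VWF, COL1A2 and LUM had at most 3 in either. Their summed level was 3.34 and 3.07 FPKM. COL1A1, a fibrillar collagen, had 92 and 11 counts, with a log2 KO/WT of -2.75 (95% interval -3.91 to -1.95), and PDGFRB, a receptor of mesenchymal cells, 122 and 29 counts and -1.83. PECAM1 had 348 and 392 counts and CDH5 4 and 15, and without PECAM1 the list had 223 and 56 counts. The 10 markers of hepatocytes and of liver cancer lines all had at least 10 counts in each library, and their summed level was 1834 and 5188 FPKM, with ALB at 59 and 8550 counts. The part of these marker differences in the results above was not tested.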

How the data were processed

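The authors sequenced 1 MAEL WT and 1 MAEL KO library of PLC8024 RNA. The deposited table of read counts per gene holds whole numbers without normalization, and the deposited FPKM values are those counts per gene length with a library size rescaled by the authors. The submitters' processing notes name HISAT2 2.0.5, featureCounts 1.5.0-p3 and hg19, whereas 58724 of the 58735 listed genes, and all 35 members, carry the starts and ends of GENCODE 29 on GRCh38. Strand setting and treatment of reads with several matches are not given in the sources used here.

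TMM normalization of the counts used edgeR 4.0.16 (factors 1.10044 and 0.908725), with DESeq2 1.42.0 size factors, total counts and the ratio of FPKM values as alternatives, in R 4.3.3. Fold changes, exact Clopper-Pearson intervals and exact conditional ratio intervals were computed in Python 3.11.15 with SciPy 1.17.1. Fold changes and Clopper-Pearson intervals were run on simulated Poisson counts. Those counts hold counting error only, as the intervals assume, so the run checks the code and not the spread between libraries. The conditional ratio intervals were not run on simulated counts. No test across genes was run, since 1 library per condition leaves no replicate error. Members, lists, pairs of genes and motifs were chosen with earlier results of these data known. The genes named are all 35 members, MAEL, other pathway genes past a log2 fold change of 2 and up to 3 at each end of their lists, and further ones chosen after their values were seen. 1 gene that this rule covers is not reported here.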

Additional observations from a re-analysis of the deposited data

How the results depend on the processing

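No paired analysis was possible because each condition has 1 library, and for the same reason no library could be left out. The count of 7 genes below -2 was 9 of 30 with total counts (background 7.32%), 5 of 30 with 5 added (2.87%), 4 of 20 with at least 100 counts in a library (2.35%), and 11 of 30 at a log2 threshold of 1 (16.5%). It was 4 of 24 with at least 10 counts in both libraries (1.93%) and 4 of 16 without genes that share exonic bases with a counted gene (5.62%), both alternatives chosen after seeing the data. With total counts, medians moved to -1.09 for class I chains, -1.19 for loading genes and -0.78 for regulators, and the summed heavy chains to -1.27 as this scaling lowers nearly all genes alike. The median of the regulators turned from -0.51 to 0.02 over 3 genes with at least 100 counts, and also over 3 without those that share exons. The median of the NKG2D ligands, which joins unlike pairs, was -0.12 for those with at least 100 counts or with 10 in both libraries, and -3.03 without MICA. That of the immunoproteasome was -3.33 with at least 100 counts and -1.74 with 10 in both libraries, and that of the class I chains -0.46 without HLA-B, HLA-C and HLA-F. Without division by length, the MAEL WT shares were 5.47% for PSMB8 and 9.11% for PSMB9, and the MAEL KO share of PSMB9 1.39%. Under total counts, 16 of 30 single gene values stayed within their counting interval, 13 moved beyond it, and RFX5 changed sign to -0.10. With each other alternative scaling or added constant all 30 stayed. DESeq2 size factors shift log2 KO/WT by only -0.004, and the median of all tested genes was -0.042 both with them and with the FPKM ratio. Those scalings could therefore hardly move a value.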
